A study of Mus musculus with 11 samples.

Results

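The genes described here are 10 genes of hepatic stellate cells and liver fibrosis, measured in the livers of ovariectomized mice treated with follicle-stimulating hormone (FSH) or saline. They were taken by symbol (Col1a1, Col1a2, Col3a1, Acta2, Timp1, Tgfb1, Des, Lrat, Pdgfrb and Dcn) and were 10 of 36788 gene identifiers in the liver RNA-seq table. All animals were wild-type C57BL/6 females over 12 weeks of age that had been ovariectomized, which removes ovarian hormones in both groups, and placed on a high-fat diet. The study's methods describe a mixed genetic background that includes C57BL/6J for all its mice. The study asked how the liver transcriptome differed when such females received daily intraperitoneal injections of recombinant FSH. The FSH group held 5 mice (numbers 1, 2, 3, 4 and 6) and the saline group held 6 mice (numbers 1 to 6), with 1 liver library for each mouse.

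Hepatic stellate cells lie between the hepatocytes and the sinusoidal endothelium and store vitamin A as retinyl esters. In injured liver they are known to lose these stores, to become contractile myofibroblasts, and to secrete fibrillar collagens together with inhibitors of the enzymes that degrade matrix. TGF-beta and PDGF are the best known signals for this change. Of the 10 genes, Lrat, Des, Pdgfrb and Dcn are expressed by stellate cells at rest, Acta2 marks the contractile state, Tgfb1 encodes the signal, and the collagen genes and Timp1 encode secreted products.

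Values are CPM, the reads counted on a gene per 1000000 reads of its library, and differences are on the log2(CPM + 0.5) scale, FSH minus saline, tested with limma over the 12733 genes whose average reached 0.5 CPM. Library totals were between 11410596 and 19909327 reads with FSH and between 10801891 and 16077442 with saline, so that 3 reads, the limit that a count of 0 allows, corresponded to between 0.151 and 0.278 CPM. At an adjusted p under 0.05, 1350 of all genes tested (10.6%) differed between the groups, 788 of them higher with FSH (6.19%) and 562 lower (4.41%), a split that was 722 to 657 with TMM scaling. Hepatocyte markers (5 of 6 matched) summed to between 87604 and 116560 CPM in every liver, the labelled tissue being liver. In whole liver, fewer cells of a type and less RNA per cell cannot be told apart.

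Of the 10 genes, Timp1 was the only one that passed the test. It was higher in all 5 FSH livers than in all 6 saline livers, at 1.27 ± 0.369 CPM (SD, n = 5) compared with 0.364 ± 0.262 CPM (SD, n = 6). The fibrillar collagen genes Col1a1, Col1a2 and Col3a1 had lower means with FSH but overlapped widely between the groups, and none of them passed the test. By fitted difference 7 of the 10 genes were lower and 3 were higher with FSH, where 46% of all genes tested were lower. The median difference of the 10 genes was -0.13 on the log2 scale, beside 0.02 over all genes tested. The count of 1 gene in 10 that passed stood beside the 10.6% of all genes.

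**Figure D1:**
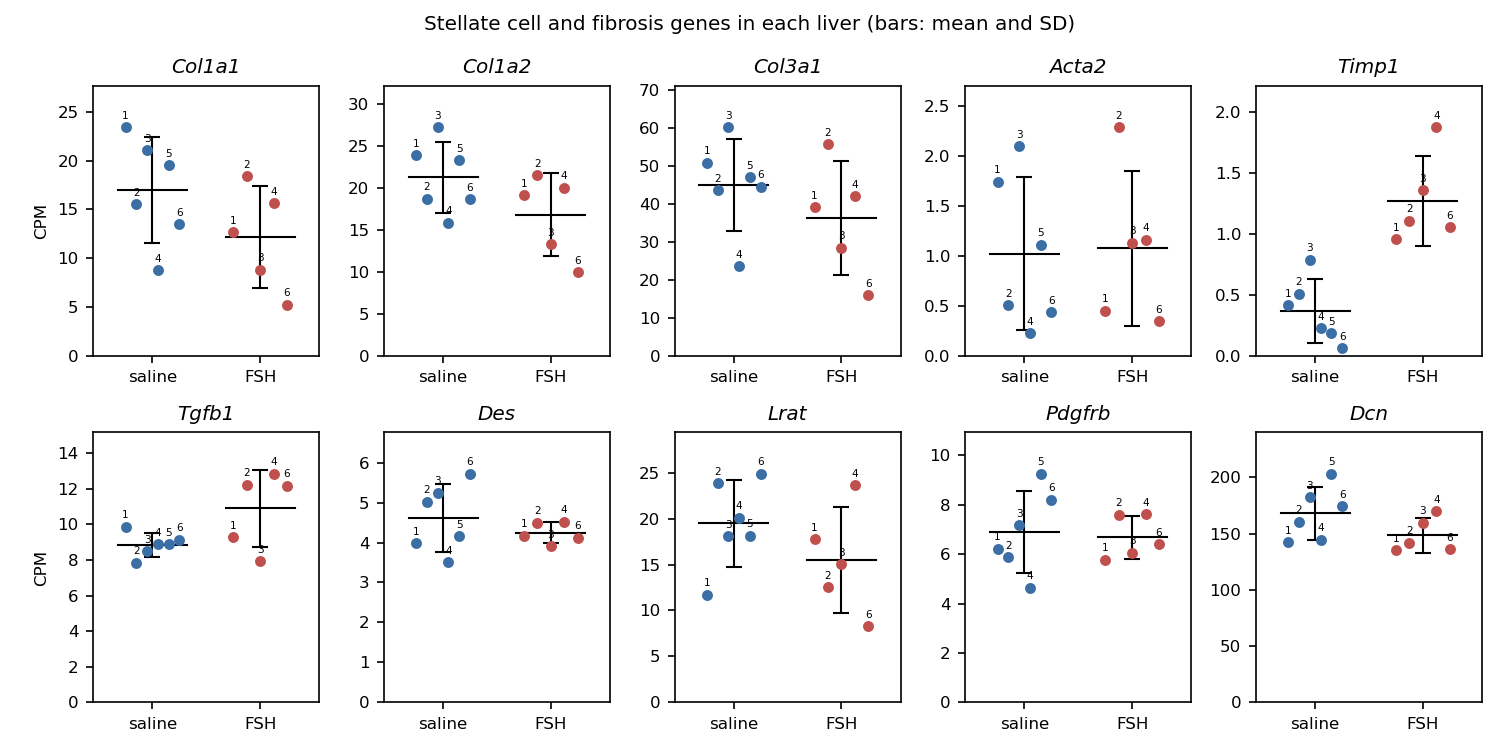
CPM of the 10 genes in each liver, with the mouse number above each point (saline in blue, FSH in red) and bars for the mean and SD of 6 saline and 5 FSH livers. The Timp1 points do not overlap between the groups, from 0.0622 to 0.787 CPM with saline and from 0.954 to 1.87 CPM with FSH, while the points of the other genes overlap.

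Promoter sequences were looked up for all 10 genes, and 7 matched an entry of the RefSeq promoter table (GRCm38.p6). The 250 bases before the annotated start are shown for Timp1, the gene that differed, and for Col3a1, which had the most reads of the 3 collagen genes. The Timp1 window is chrX:20869916-20870165 on the plus strand and the Col3a1 window is chr1:45311288-45311537 on the plus strand. Capitals mark matches, on either strand, to the TATA box (TATAAA), the CCAAT box (CCAAT), the GC box (GGGCGG) and the SMAD box (CAGAC).
Timp1: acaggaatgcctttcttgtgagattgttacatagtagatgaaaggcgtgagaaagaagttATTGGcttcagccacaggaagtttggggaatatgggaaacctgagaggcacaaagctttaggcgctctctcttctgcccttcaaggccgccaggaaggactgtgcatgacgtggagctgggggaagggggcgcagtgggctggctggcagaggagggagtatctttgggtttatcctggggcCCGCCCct
Col3a1: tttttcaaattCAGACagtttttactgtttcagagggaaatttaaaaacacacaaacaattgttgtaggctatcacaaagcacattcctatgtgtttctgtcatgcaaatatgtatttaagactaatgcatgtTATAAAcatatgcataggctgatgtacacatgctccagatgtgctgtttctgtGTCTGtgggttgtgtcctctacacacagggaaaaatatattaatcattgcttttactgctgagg
In the Timp1 window a CCAAT box ended 185 bases and a GC box 2 bases before the start. In the Col3a1 window a TATA box ended 111 bases before the start, and SMAD boxes ended 234 and 59 bases before it. Over the 7 windows the GC box was found in 5 (Des, Lrat, Col1a2, Tgfb1 and Timp1), the CCAAT box in 3 (Lrat, Col1a2 and Timp1), the SMAD box in 3 (Col3a1, Col1a2 and Acta2) and the TATA box in 1 (Col3a1). The Col1a2 and Acta2 windows overlap annotated exons of GENCODE M21 and do not lie outside a gene. Among 32851 promoter windows of the same length, these motifs were present in 32.7%, 33.8%, 42.2% and 12.4%, respectively. The AP-1 site (TGANTCA), the E-box (CACGTG) and the CArG box had no match in the 7 windows and were found in 6.75%, 6.02% and 1.47% of all windows. None of the motifs searched overlapped another in the windows shown.

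Timp1 (ENSMUSG00000001131) encodes tissue inhibitor of metalloproteinases 1, a secreted protein that blocks matrix-degrading enzymes, and lies on the X chromosome of GRCm38 from 20870166 to 20874735 on the plus strand. In the FSH livers 1, 2, 3, 4 and 6 it had 0.954, 1.11, 1.36, 1.87 and 1.05 CPM. In the saline livers 1 to 6 it had 0.415, 0.509, 0.787, 0.228, 0.185 and 0.0622 CPM. The highest saline liver (mouse 3) was thus below the lowest FSH liver (mouse 1). The difference was 1.06 on the log2 scale (SE 0.22, 95% confidence interval 0.59 to 1.54, limma adjusted p = 0.00688), and the ratio of the mean CPM was 3.48. An exact two-sided permutation test over the 462 splits of the livers gave p = 0.00433, where the smallest possible value was 0.00216. Non-overlap of the groups was seen for 6.67% of all genes tested, and 1.83% passed the test with a log2 difference over 1 in either direction, as Timp1 did.

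The level of Timp1 was low in every liver, with 12 to 29 reads behind the FSH values and 1 to 9 reads behind the saline values. It passed the filter on low values only through the FSH group, since the saline mean was under 0.5 CPM. The size of its difference rested on the pseudocount, from 0.74 with 1 CPM to 1.73 with 0.1 CPM, and edgeR on the recovered reads gave 1.79 (adjusted p = 0.0106). Timp1 overlaps the span of Syn1 on the opposite strand without shared exon bases, and Syn1 had at most 0.581 CPM in any liver.

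Markers of the mesothelium, the cell layer on the liver surface, were read beside Timp1, without a test of their relation to it. All 5 of 5 were higher with FSH by fitted difference, where 46% of all genes were lower. The test was passed by 40% (beside 10.6% of all genes and 6.19% higher). These were Gpm6a (1.35, limma adjusted p = 0.00363) and Msln (1.20, limma adjusted p = 0.0413), Msln in only 12 of 24 alternative analyses. The summed level of the 5 markers was between 18.9 and 29.8 CPM in the FSH livers and between 3.80 and 23.2 CPM in the saline livers. None of the 5 markers was at 0 in any liver. The highest saline sum, 23.2 CPM, was that of saline liver 2, which had 0.509 CPM of Timp1 on 7 reads. The part of mesothelial RNA in the Timp1 difference was not tested.

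**Figure D2:**
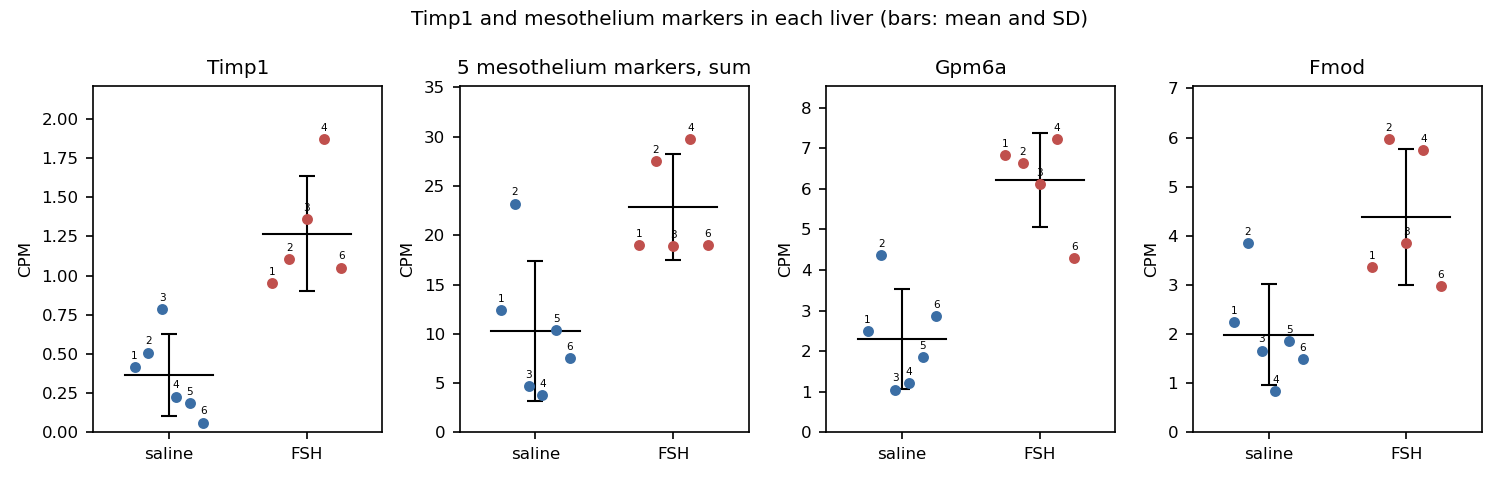
CPM of Timp1, of 5 mesothelium markers summed (Msln, Upk3b, Upk1b, Wt1 and Gpm6a), of Gpm6a alone and of Fmod in each liver, with mouse numbers and bars for mean and SD (6 saline livers in blue, 5 FSH livers in red). Saline mouse 2 is the highest saline liver for the marker sum (23.2 CPM), Gpm6a and Fmod, and saline mouse 3 is the highest for Timp1 (0.787 CPM).

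Among the fibrillar collagens, Col1a1 and Col1a2 encode the chains of type I collagen, the main fibre of scar tissue, and Col3a1 encodes type III collagen. Col1a1 (chromosome 11, 94936224 to 94953042, plus strand) had 12.7, 18.4, 8.84, 15.6 and 5.26 CPM in FSH livers 1, 2, 3, 4 and 6. The saline livers 1 to 6 had 23.4, 15.6, 21.1, 8.75, 19.5 and 13.5 CPM. FSH liver 6 was the lowest of all and saline liver 1 the highest, and the other 4 FSH livers lay inside the saline range. Col1a1 thus differed by -0.52 on the log2 scale (SE 0.29, 95% confidence interval -1.13 to 0.10, limma adjusted p = 0.293), with an exact permutation p of 0.184.

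Col1a2 (chromosome 6, 4504814 to 4541544, plus strand) was measured at 19.2, 21.5, 13.3, 20.1 and 9.99 CPM in the same order of FSH livers. With saline it was measured at 23.9, 18.8, 27.3, 15.9, 23.3 and 18.7 CPM. Only FSH livers 3 and 6 were below the lowest saline liver. The difference of -0.36 had a 95% confidence interval from -0.77 to 0.04 (limma adjusted p = 0.251, exact permutation p = 0.141). Col3a1 (chromosome 1, 45311538 to 45349706, plus strand, sharing exon bases with the predicted gene Gm47302 on the same strand) had 39.1, 55.7, 28.4, 42.0 and 16.04 CPM with FSH. Its saline values were 50.8, 43.6, 60.2, 23.7, 47.0 and 44.5 CPM. The FSH livers except number 6 lay inside the saline range, and the difference was -0.37 (95% confidence interval -0.95 to 0.22, limma adjusted p = 0.449, exact permutation p = 0.310).

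**Figure D3:**
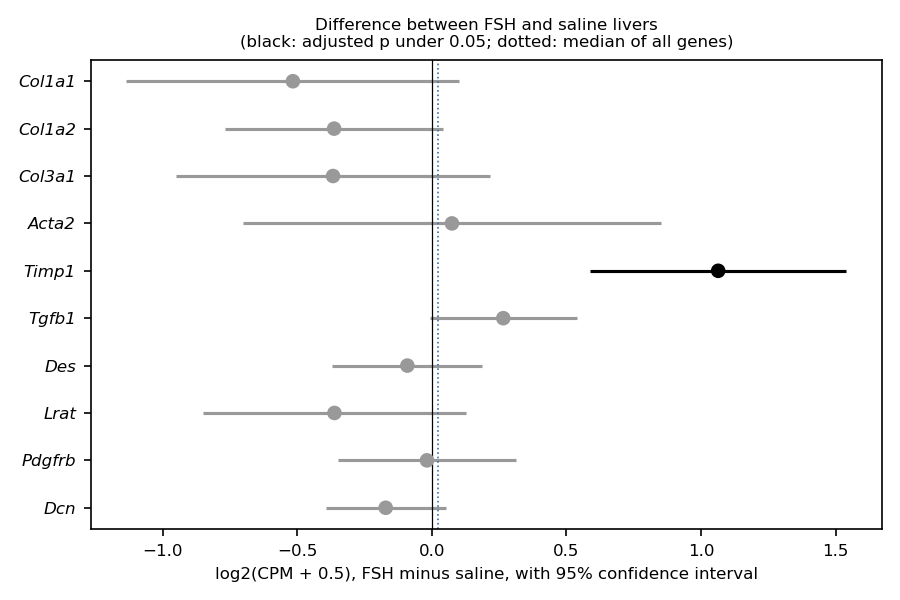
Difference in log2(CPM + 0.5), FSH minus saline, for the 10 genes with 95% confidence intervals (5 FSH and 6 saline livers). The black interval is that of Timp1 (0.59 to 1.54), the gene with an adjusted p under 0.05. The grey intervals include 0, and the dotted line at 0.02 is the median of all genes tested.

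The 3 collagen genes followed each other from liver to liver. Pearson's r of log2(CPM + 0.5) over the 11 livers was 0.967 for Col1a1 and Col1a2 (Spearman's rho 0.955, permutation adjusted p = 0.0009 and 0.0018), and 0.943 without the livers farthest from the median, FSH 6 and saline 4. It was 0.962 for Col1a1 and Col3a1 (rho 0.918, permutation adjusted p = 0.0009 and 0.0063) and 0.941 for Col1a2 and Col3a1 (rho 0.882, permutation adjusted p = 0.00165 and 0.0123). Of 45 pairs among the 10 genes, these were the 3 that passed by both measures, with p-values adjusted over all pairs. Within groups, as deviations from the group means, the 3 relations had r between 0.943 and 0.962. The sum of the 3 genes was highest in saline liver 3 (108.5 CPM) and saline liver 1 (98.1 CPM) and lowest in saline liver 4 (48.3 CPM) and FSH liver 6 (31.3 CPM).

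The proportions among the collagen genes gave no difference beyond the spread between livers. The Col3a1 to Col1a2 ratio of CPM was 2.09 ± 0.348 in FSH livers (SD, n = 5) and 2.09 ± 0.324 in saline livers (SD, n = 6), with an exact permutation p of 0.991. The Col1a1 to Col1a2 ratio was 0.696 ± 0.125 with FSH and 0.782 ± 0.142 with saline (exact permutation p = 0.327), and the Col1a1 to Col3a1 ratio was 0.333 ± 0.0230 with FSH and 0.376 ± 0.0549 with saline (exact permutation p = 0.141). Among the genes tested outside the 10, those most like Col1a1 across the 11 livers were Col4a1 (r = 0.969), Col6a3 (0.918), E2f3 (0.917), Fam180a (0.914) and Pgm3 (0.905). Col4a1 and Col6a3 encode basement membrane and microfibrillar collagens.

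**Figure D4:**
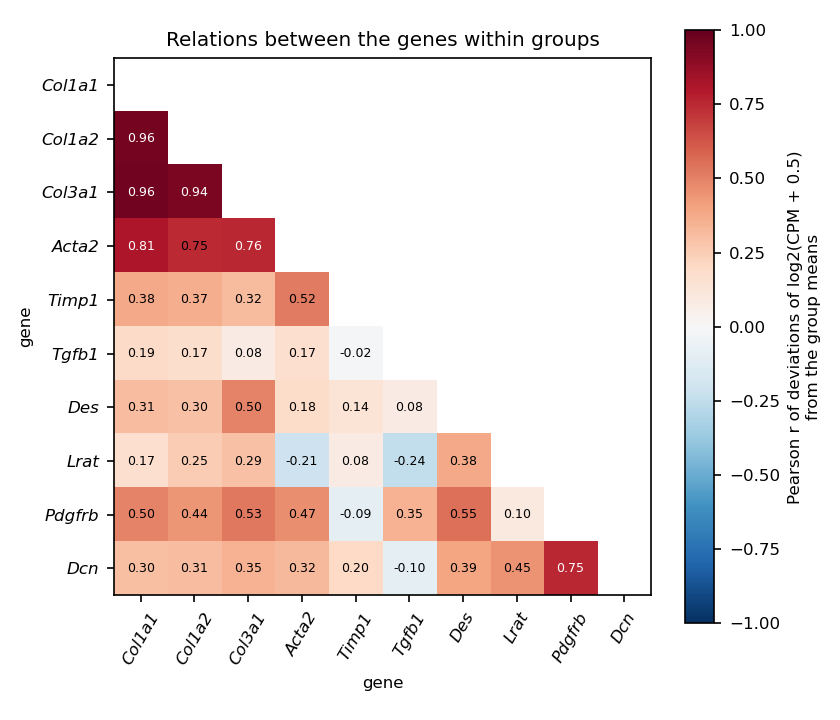
Pearson r of log2(CPM + 0.5) between each pair of the 10 genes across 11 livers, computed on deviations from the group means (red positive, blue negative). The block of Col1a1, Col1a2 and Col3a1 at the top left holds the highest values (0.943 to 0.962), and Timp1 and Tgfb1 stand at -0.02.

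Acta2 (chromosome 19, 34241090 to 34255590, minus strand) encodes smooth muscle alpha-actin, which marks activated stellate cells and also vascular smooth muscle. It had 0.452, 2.29, 1.13, 1.16 and 0.351 CPM in FSH livers 1, 2, 3, 4 and 6 and 1.74, 0.509, 2.10, 0.228, 1.11 and 0.435 CPM in saline livers 1 to 6, on 3 to 31 reads. High and low livers occurred in both groups, and the coefficient of variation was 71.8% with FSH and 74.9% with saline. The difference was 0.07 (95% confidence interval -0.70 to 0.85, limma adjusted p = 0.929), an interval that holds increases of up to 1.81-fold on this scale. Acta2 had an r with Col1a1 of 0.700 over the 11 livers (rho 0.791, permutation adjusted p = 0.14 and 0.0619), which fell to 0.549 without FSH liver 6 and saline liver 4. Of the 14 contractile genes listed, 10 were tested and 0 passed limma's test (0%, beside 10.6% of all genes). At an unadjusted p under 0.05 there were also 0, beside 3196 of all 12733 genes tested. All 5 vascular smooth muscle markers together summed to between 4.73 and 8.04 CPM with FSH and between 4.79 and 10.6 CPM with saline.

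Tgfb1 (chromosome 7, 25687002 to 25705077, plus strand) encodes TGF-beta 1, the ligand that drives collagen synthesis in stellate cells. The FSH livers 1, 2, 3, 4 and 6 had 9.29, 12.2, 7.93, 12.9 and 12.2 CPM, and the saline livers 1 to 6 had 9.88, 7.86, 8.48, 8.90, 8.89 and 9.14 CPM. FSH livers 2, 4 and 6 lay above all saline livers, and FSH livers 1 and 3 lay among them. The difference of 0.27 (95% confidence interval -0.01 to 0.54) did not pass the test (limma adjusted p = 0.212, exact permutation p = 0.0779). Macrophages also produce TGF-beta 1. Their 7 markers were all lower with FSH by fitted difference, where 46% of all genes were lower. The test was passed by 1 of them (14.3%, beside 10.6% of all genes), Cd68 (-0.78, limma adjusted p = 0.0118). The 7 markers summed to between 96.2 and 263 CPM with FSH and between 158 and 312 CPM with saline. The part of macrophages in the Tgfb1 values was not tested.

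The genes that stellate cells express at rest gave no difference that passed the test. Lrat (chromosome 3, 82892579 to 82903973, minus strand), the enzyme that esterifies retinol for storage, had 17.8, 12.5, 15.1, 23.6 and 8.33 CPM with FSH and 11.7, 23.9, 18.1, 20.1, 18.1 and 24.9 CPM with saline. FSH liver 6 was the lowest and saline liver 6 the highest, with FSH liver 4 near the top and saline liver 1 near the bottom. Lrat differed by -0.36 (95% confidence interval -0.85 to 0.13, limma adjusted p = 0.361). Its order over the livers was not that of the collagens: r with Col1a1 was 0.314 (rho 0.00, permutation adjusted p = 0.557).

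Dcn (chromosome 10, 97479609 to 97518143, plus strand) encodes decorin, a small proteoglycan that binds collagen fibrils, and had by far the most reads of the 10 genes, 1552 to 2820 in a liver. It had 135, 142, 159.7, 169.7 and 136 CPM in the FSH livers and 142, 161, 182, 145, 203 and 174 CPM in the saline livers. Saline livers 3, 5 and 6 were above all FSH livers, and the others overlapped. The difference was -0.17 (95% confidence interval -0.39 to 0.05, limma adjusted p = 0.336), so that an increase of more than 1.04-fold lay outside the interval on this scale.

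Des (chromosome 1, 75360329 to 75368579, plus strand) encodes desmin, an intermediate filament of stellate and muscle cells, and shares exon bases with the predicted gene Gm15179 on the opposite strand, which had 0 reads in every liver. In FSH livers it was 4.24 ± 0.263 CPM (SD, n = 5), from 3.91 to 4.52 CPM, and in saline livers 4.61 ± 0.852 CPM (SD, n = 6), from 3.50 to 5.72 CPM. All FSH livers lay inside the saline range, and the difference was -0.09 (95% confidence interval -0.37 to 0.19, limma adjusted p = 0.722). Pdgfrb (chromosome 18, 61045150 to 61085061, plus strand) encodes the beta receptor for PDGF, the growth factor of stellate cells. In FSH livers it was 6.69 ± 0.867 CPM (SD, n = 5), from 5.78 to 7.62 CPM, and in saline livers 6.90 ± 1.67 CPM (SD, n = 6), from 4.64 to 9.26 CPM. The FSH values again lay inside the saline range, with a difference of -0.02 (95% confidence interval -0.35 to 0.31, limma adjusted p = 0.961).

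Levels per length were compared as CPM per kilobase of the principal transcript, over the 11 livers. Dcn stood first with 90.5 ± 12.4 CPM per kilobase (SD, n = 11), far above Col3a1 with 7.37 ± 2.43. Tgfb1 (4.50 ± 0.827), Col1a2 (3.60 ± 0.919), Lrat (3.30 ± 1.00) and Col1a1 (2.49 ± 0.953) followed in that order. Des (1.47 ± 0.216), Pdgfrb (1.26 ± 0.241), Timp1 (0.878 ± 0.633) and Acta2 (0.514 ± 0.359) were the lowest, all per kilobase. Timp1 differed between the groups, with 1.44 CPM per kilobase in FSH livers, where Des had 1.40 and Pdgfrb 1.24, and 0.413 in saline livers, where Acta2 had 0.502, so its place in the order was not that of either group. Below Dcn, the SD ranges of neighbours in this order overlapped. These SDs are between livers, and neighbours were not compared within livers.

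The wider gene lists around the 10 genes were read from the same fit, in which 46% of all genes were lower by fitted difference, and the lists are described by their counts without a test. Of 23 stellate cell markers, 22 were tested, 18 were lower with FSH by fitted difference, and 2 passed the test (9.09%, beside 10.6% of all genes), both lower (median -0.13, beside 0.02 over all genes). These were Ecm1, which encodes extracellular matrix protein 1 (-0.37, 180.3 ± 27.7 against 233 ± 26.7 CPM, limma adjusted p = 0.0419), and Hand2, a transcription factor of stellate cells (-0.61, 7.57 ± 1.98 against 11.8 ± 2.71 CPM, limma adjusted p = 0.0477). Both lay near the threshold, Ecm1 passing in 12 and Hand2 in 13 of 24 alternative analyses. Summed over the stellate list, CPM was between 599 and 714 with FSH and between 691 and 834 with saline. The remaining gene with the smallest p, Hhip, which encodes an inhibitor of hedgehog signalling, had a difference of 0.46 (limma adjusted p = 0.131).

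Of 23 collagen genes, 21 were tested and 1 passed (4.76%, beside 10.6% of all genes), Col5a3, which encodes a chain of the minor fibrillar collagen V. In the FSH livers 1, 2, 3, 4 and 6 Col5a3 had 3.62, 6.20, 5.55, 7.75 and 4.12 CPM, and in the saline livers 1 to 6 it had 9.96, 9.16, 14.8, 16.2, 17.6 and 11.6 CPM. The groups did not overlap, and the difference was -1.21 (95% confidence interval -1.64 to -0.78, limma adjusted p = 0.00156). Of the 21 genes, 14 were lower by fitted difference, where 46% of all genes were, the median being -0.17, and Col4a5 (0.57, limma adjusted p = 0.0516), Col6a3 (-0.51, 0.0877) and Col6a2 (-0.38, 0.206) came next by p. Over 24 alternative analyses Col4a5 passed in 10, Col6a3 in 4 and Col6a2 in 0.

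Collagen processing genes, which encode the enzymes that hydroxylate, trim and cross-link collagen, had 20 of 22 tested and 3 that passed (15%, beside 10.6% of all genes and 4.41% lower), all lower with FSH (median -0.24). The cross-linking enzyme gene Loxl4 had 0.201, 0.443, 0.227, 0.258 and 0.175 CPM in the FSH livers and 2.74, 1.82, 2.01, 1.14, 1.85 and 3.30 CPM in the saline livers. Every FSH liver was below every saline liver, and the difference was -1.76 (95% confidence interval -2.19 to -1.32, limma adjusted p = 9.16e-05). Loxl4 passed the filter on low values only through the saline group, and the size of its difference ran from -3.09 to -1.29 over 24 alternative analyses, being below 0 and passing in each. Bmp1, the proteinase that trims the ends of fibrillar procollagens (77.9 ± 9.26 against 114 ± 11.2 CPM), differed by -0.54 (limma adjusted p = 0.00254). P4ha1, a prolyl hydroxylase subunit, differed by -0.76 (limma adjusted p = 0.0136). Its relative P4ha2 at -0.64 did not pass (limma adjusted p = 0.0570), but passed in 6 of 24 alternative analyses.

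Matrix glycoproteins and proteoglycans had 29 of 32 genes tested, 10 higher and 19 lower by fitted difference (median -0.16). The test was passed by 5 (17.2%, beside 10.6% of all genes), 2 of them higher (Fmod and Ogn) and 3 lower (Lum, Postn and Thbs2). Fmod encodes fibromodulin and Lum encodes lumican, small proteoglycans of the same family as decorin that bind collagen fibrils, and they moved in opposite directions. Fmod had 4.38 ± 1.39 CPM in FSH livers (SD, n = 5) and 1.99 ± 1.02 CPM in saline livers (SD, n = 6), a difference of 1.02 (limma adjusted p = 0.0210). Lum had 9.39 ± 2.06 and 13.3 ± 0.647 CPM, a difference of -0.50 (limma adjusted p = 0.0184). Ogn, the proteoglycan osteoglycin, differed by 0.77 (limma adjusted p = 0.0466) and Thbs2, the matricellular thrombospondin 2, by -0.70 (limma adjusted p = 0.0112), with no overlap of the groups for Thbs2. Postn, named here after its values were seen, differed by -0.51 (limma adjusted p = 0.0489). Ogn and Postn passed in 11 and 12 of 24 alternative analyses, Fmod did not pass without FSH mouse 2 or 4 or with no filter on low values, and Lum did not pass without FSH mouse 1 or 3, with the replicate block or with thinned libraries, the highest adjusted p over all alternatives being 0.0582 for Fmod and 0.0592 for Lum. Saline liver 2, the saline liver highest in the mesothelium markers, was also the saline liver with the highest Fmod (3.85 CPM) and Ogn (2.62 CPM), and the part of mesothelial RNA in these differences was not tested.

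Timp1 was the gene that rose among the proteases and their inhibitors, where 17 of 24 genes were tested and 11.8% passed (beside 10.6% of all genes), and Mmp14, a membrane-bound collagenase, was the gene that fell. Mmp14 had 37.0, 38.1, 39.2, 41.8 and 49.3 CPM in the FSH livers and 79.4, 67.6, 60.7, 58.1, 47.0 and 54.6 CPM in the saline livers, overlapping only through FSH liver 6 and saline liver 5. The difference was -0.56 (95% confidence interval -0.82 to -0.30, limma adjusted p = 0.00934). The other inhibitors of the family that were tested, named after their values were seen, were Timp2 with a difference of 0.02 (limma adjusted p = 0.936) and Timp3 with -0.41 (limma adjusted p = 0.325). Mmp12, which encodes a macrophage elastase, had a difference of -0.66 and did not pass (limma adjusted p = 0.134). It met the filter on low values only through the saline group, with means of 0.280 CPM with FSH and 0.780 CPM with saline.

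Around Tgfb1, 29 of 31 genes of the TGF-beta pathway were tested, 13 higher and 16 lower by fitted difference (median -0.09). Of these, 1 higher and 1 lower gene passed the test (6.9%, beside 10.6% of all genes). Tgfbr3, which encodes the co-receptor betaglycan, had 11.01 ± 1.58 CPM in FSH livers (SD, n = 5) and 7.24 ± 0.814 CPM in saline livers (SD, n = 6) with no overlap, a difference of 0.57 (limma adjusted p = 0.00568). Skil, a repressor of SMAD transcription factors, differed by -0.69 (limma adjusted p = 0.0217) and did not pass without FSH mouse 1 (limma adjusted p = 0.0663). Tgif1, another corepressor, had -0.40 (limma adjusted p = 0.109).

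Around Pdgfrb, all 6 genes of the PDGF pathway were tested and the ligand gene Pdgfc passed (16.7%, beside 10.6% of all genes). It had 2.56, 1.92, 3.34, 4.13 and 3.68 CPM in the FSH livers and 5.56, 7.06, 8.57, 5.63, 8.61 and 9.27 CPM in the saline livers. The groups did not overlap, and the difference was -1.14 (95% confidence interval -1.54 to -0.75, limma adjusted p = 0.00135). Pdgfb (-0.47, limma adjusted p = 0.188), Pdgfa (0.40, 0.237) and Pdgfd (-0.34, 0.463) did not pass.

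Around Lrat, the list of retinoid storage and turnover had 13 of 18 genes tested and the largest share that passed among the 9 lists, 6 of 13 (46.2%, beside 10.6% of all genes and 0% to 17.2% of the other lists), with 2 higher and 4 lower and a median of -0.35. Hepatocytes express several of these genes. Rdh11, a retinal reductase, had 135, 139, 120.2, 103 and 59.8 CPM in the FSH livers and 45.5, 46.5, 44.4, 26.0, 64.8 and 59.8 CPM in the saline livers. FSH liver 6 alone lay among the saline livers, and the difference was 1.21 (95% confidence interval 0.71 to 1.70, limma adjusted p = 0.00409). Stra6l, a liver receptor for retinol-binding protein, had 70.4 ± 5.14 CPM in FSH livers (SD, n = 5) and 117 ± 7.93 CPM in saline livers (SD, n = 6) without overlap, a difference of -0.73 (limma adjusted p = 4.48e-05). Dhrs3, which reduces retinal to retinol, differed by -0.53 (limma adjusted p = 0.00335) and Retsat, a retinol saturase, by -0.59 (limma adjusted p = 0.0106), each without overlap. Rarb (0.70, limma adjusted p = 0.0234) and Aldh1a1 (-0.51, limma adjusted p = 0.0275), named after their values were seen, were the others that passed, but each missed the threshold with no filter on low values and without FSH mouse 1, 3 or 4, and Aldh1a1 also without saline mouse 6 (highest adjusted p over all alternatives 0.0752 for Rarb and 0.0712 for Aldh1a1).

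**Figure D5:**
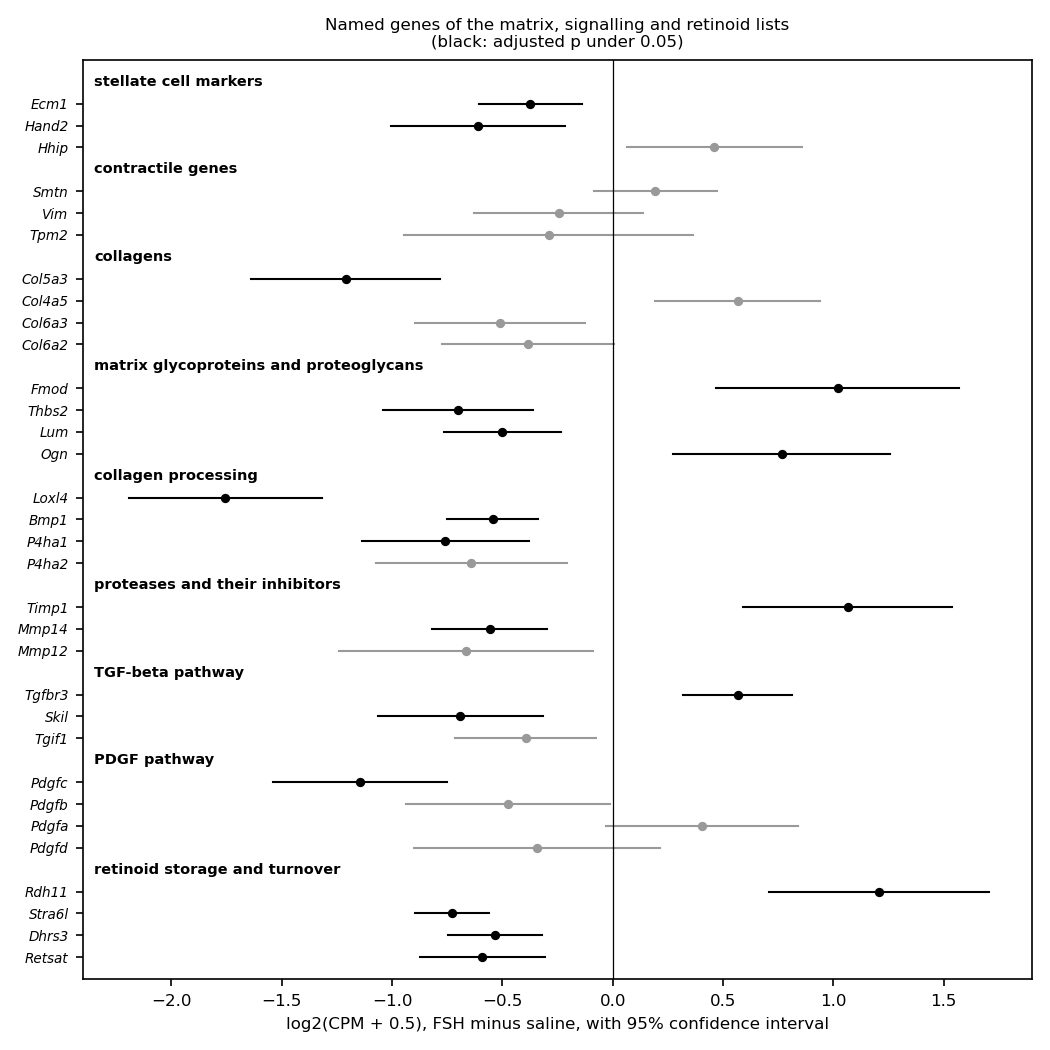
Difference in log2(CPM + 0.5), FSH minus saline, with 95% confidence intervals for the genes named from 9 lists of matrix, signalling and retinoid genes (5 FSH and 6 saline livers; black, adjusted p under 0.05). Loxl4 (-1.76), Col5a3 (-1.21) and Pdgfc (-1.14) lie farthest to the left, and Rdh11 (1.21), Timp1 (1.06) and Fmod (1.02) farthest to the right.

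Over 24 alternative analyses the direction of Col1a1, Col1a2, Col3a1, Tgfb1, Des, Lrat, Timp1 and Dcn was kept wherever they were tested, while Acta2 (-0.16 to 0.26) and Pdgfrb (-0.12 to 0.07) changed direction. FSH mouse 6, the liver lowest in the collagen genes and in Lrat, set much of the size of these differences: without it Col1a1 was at -0.26, Col1a2 at -0.20, Col3a1 at -0.11 and Lrat at -0.17. Other livers moved them the other way, with Col1a1 at -0.69 and Col3a1 at -0.55 without FSH mouse 2, and Lrat at -0.53 without FSH mouse 4. Timp1 passed in all 23 analyses in which it was tested, with adjusted p between 0.000982 and 0.0239.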

How the data were processed

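Liver RNA-seq libraries of 5 FSH-treated and 6 saline-treated ovariectomized mice on a high-fat diet were compared. Per the labels, papain digestion of whole liver preceded RNA extraction, whereas the study's methods describe a column kit on liver tissue without it; digestion, if done, could change the cell types recovered. NEBNext Ultra libraries were made. The submitters' processing notes name FastQC 0.11.2, Trim Galore 0.3.3, cutadapt, STAR, RSEM and the mm10 build; the annotation and the use of strand are not given in the sources used here. The authors deposited CPM values for 36788 Ensembl identifiers. Dividing each library by its smallest step gave whole reads for 100% of the values (tolerance 0.01 read), although RSEM estimates need not be whole.

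Symbols and positions came from GENCODE M21 (GRCm38), which named 35555 identifiers and left 1233 unnamed. The 12733 genes whose average reached 0.5 CPM were tested on log2(CPM + 0.5) in R 4.3.3 with limma 3.58.1 (eBayes with an intensity trend, Benjamini-Hochberg adjustment over all genes tested). No p-value was adjusted over the 10 genes alone. Log2 differences understate the change of low genes. Exact two-sided permutation tests over 462 splits were run in R for single genes. For the collagen ratios they were run on log2 ratios with numpy 2.4.6. Relations between genes (100000 resamples) used numpy 2.4.6, with ranks and adjustment from scipy 1.17.1. As alternatives, edgeR 4.0.16 (quasi-likelihood test) and DESeq2 1.42.0 were run on the recovered reads and called 1435 and 1743 genes, and other pseudocounts, filters, scalings, weights, voom, thinning, a replicate block and leaving out each liver were tried. On simulated data with 200 changed genes and a dispersion of 0.0315, limma found 97% of those changed by 1 and 99% of those changed by 2 on the log2 scale among 12714 genes, with 7.11% false calls. Every simulated gene had this same dispersion, so these shares do not carry over to genes that varied more between livers. Col1a1 was such a gene, with a coefficient of variation of 43.1% with FSH and 31.9% with saline.

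The genes described and the lists were chosen with earlier results of these data known. From each list the genes past an adjusted p of 0.05 and an absolute log2 difference of 1 were named, with up to 3 others of smallest p, and the 5 genes most like Col1a1. Some results are not reported here. No 2 libraries of a group were alike within sampling noise (lowest mean chi-square per gene 11.2, where about 1 would mark a repeat). The labels name no litter or cage, so p-values measure the spread between these livers. Confidence intervals are limma's and rest on the spread between livers, while the limit of 3 reads covers counting error only.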

Additional observations from a re-analysis of the deposited data

Results flagged for a closer look

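Of the 10 genes, none had a liver that stood apart from its group by Dixon's test. Among the named list genes, Mmp12 in FSH mouse 2 had 0.664 CPM, where the other FSH livers had between 0.129 and 0.283 CPM. Tgfbr3 in saline mouse 6 had 8.83 CPM, where the other saline livers had between 6.54 and 7.27 CPM. Skil in FSH mouse 4 had 14.6 CPM, where the other FSH livers had between 8.44 and 10.2 CPM. These were 3 of 84 groups examined, and chance alone flags about 1 in 20.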

How the results depend on the processing

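Of the 10 genes, 1 (Timp1) passed at an adjusted p under 0.05 in the main analysis and in every alternative but a filter of at least 1 CPM, under which Timp1 was not tested and 0 of 9 passed. Leaving out each liver in turn gave 1 of the 10 each time. Over all genes, leaving out each liver took the number that passed from 1350 to between 804 (without FSH mouse 1) and 1659 (without FSH mouse 6), and the number also past a log2 difference of 1 from 233 to between 198 and 273. Over the other alternatives these numbers reached 1892 with array weights, and 189 with a pseudocount of 1 CPM and 320 with DESeq2, respectively. With mouse number as a replicate block, 1214 genes passed over all, 252 of them also past the fold threshold, and 1 of the 10; the Timp1 difference was then 1.01 (adjusted p = 0.0239). Correlations between same-numbered livers ran from -0.0662 to 0.356 over the 5 numbers. These correlations cannot show whether such livers shared more than a number. Acta2 and Pdgfrb changed sign without passing a test in any analysis. Acta2, at 0.074, was at -0.075 with array weights and ran from -0.16 (without FSH mouse 2) to 0.26 (without FSH mouse 6) when livers were left out, falling below 0 also without saline mouse 2, 4 or 6. Pdgfrb, at -0.018, was at 0.068 with the replicate block and 0.020 with thinned libraries, and ran from -0.12 (without saline mouse 4) to 0.068 (without saline mouse 5) when livers were left out, rising above 0 also without FSH mouse 1 or 3 or saline mouse 6. The cause was not tested. The low reads of Timp1 and Acta2 limit their precision, and the intervals of the collagen genes include both no change and falls of over 1.5-fold.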

Other observations

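The cell type markers not set beside a gene above were also read from the fit. In it 10.6% of all genes tested passed, 46% were lower by fitted difference, and 3196 of 12733 had an unadjusted p under 0.05. The shares that passed were 16.7% of cholangiocyte, 16.7% of sinusoidal endothelial and 20% of hepatocyte markers tested, each resting on 1 gene. Of 6 cholangiocyte markers, 5 were higher with FSH by fitted difference, and Krt7, a keratin of bile duct cells, passed the test at 1.86 ± 0.262 CPM (SD, n = 5) compared with 0.967 ± 0.190 CPM (SD, n = 6), a difference of 0.69 (limma adjusted p = 0.00731). The exception, Sox9, a transcription factor of bile duct cells, had a difference of -0.50 that did not pass (limma adjusted p = 0.0545). Of 6 markers of sinusoidal endothelial cells, which line the vessels beside the stellate cells, 2 were higher and 4 lower by fitted difference (median -0.08), and Lyve1 alone passed with 10.1 ± 2.63 CPM against 15.6 ± 1.76 CPM, a difference of -0.63 (limma adjusted p = 0.0121). Of 5 hepatocyte markers tested, 2 were higher (Alb, 0.05, and Ttr, 0.05) and 3 lower by fitted difference, and Fgb, a fibrinogen chain, passed with a difference of -0.38 (limma adjusted p = 0.0289), but in only 16 of 24 alternative analyses. Of 6 portal fibroblast markers, 3 were tested and 0 passed limma's test, 1 of them with an unadjusted p under 0.05, and their sum was between 5.63 and 10.6 CPM with FSH and between 5.78 and 6.98 CPM with saline. Markers of T and NK cells (2 tested), B cells (4), neutrophils (1), erythroid cells (5), skeletal muscle (1) and pancreatic acinar cells (1) held 0 genes that passed and 0 with an unadjusted p under 0.05 in limma's test. The adipocyte markers summed to at most 0.525 CPM in any liver and were not tested, with Retn and Lep at 0 in every liver.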
